A study of Mus musculus with 15 samples.

Results

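The cell cycle and DNA replication genes described here are 43 genes chosen by symbol for their roles: 23 of mitosis, 15 of DNA replication and 5 of G1, the phase in which a cell commits to dividing. They were looked up among the 13940 annotated genes with a transcript in the tables of every mouse. The tables hold kidney RNA from 15 male wild-type C57BL/6 mice, 8 weeks old at purchase and adapted for 1 week, in 3 groups of 5. Control mice were infused with saline for 4 weeks (28 days), and Ang II mice received angiotensin II, the pressor peptide of the renin-angiotensin system, at 500 ng/kg/min from osmotic pumps placed under the skin. Ang II + QDG mice received the same infusion and, by gavage, 1.145 g/kg/day of Qingda granule, a preparation of Gastrodia elata, Uncaria rhynchophylla, Scutellaria baicalensis and Nelumbo nucifera, while both other groups were given water. Each mouse gave 1 library of kidney tissue, so a change in the number of cells of a type cannot be told apart from a change in RNA per cell.

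In a dividing cell the D cyclins activate the kinases that release the E2F transcription factors. E2F targets then supply the nucleotides, the helicase and the sliding clamp of DNA replication, and a later wave of genes builds the mitotic spindle and separates the chromosomes. Most cells of the adult kidney are quiescent, and tubular cells re-enter the cycle mainly after injury. Mitotic transcripts such as Mki67 and Top2a are therefore used as marks of dividing cells, whereas D cyclins and replication genes are also transcribed in cells that are not in mitosis.

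The late and the early wave differ in promoter sequence, and 6 windows are printed here to show it. The CHR element (TTTGAA) and the CCAAT box (CCAAT) are textbook features of genes of late G2 and mitosis, and the E2F element (searched as TTTCCCGC, TTTGGCGC and TTTGGCGG) of genes of the G1/S transition. All were searched on both strands in RefSeq windows on GRCm38.p6 from 250 bases before to 50 bases after the transcription start; no motif contains another, and 33 of the 43 members have a window. The windows below show Kif23 and Cdc20, mitosis members measured in every mouse, Mki67, which was not listed, and the replication members Pcna, Mcm5 and Mcm6. They run 5′ to 3′ along the gene, and capitals mark every match of the 3 motifs.
Kif23 (chr9:61946750-61947049, minus strand): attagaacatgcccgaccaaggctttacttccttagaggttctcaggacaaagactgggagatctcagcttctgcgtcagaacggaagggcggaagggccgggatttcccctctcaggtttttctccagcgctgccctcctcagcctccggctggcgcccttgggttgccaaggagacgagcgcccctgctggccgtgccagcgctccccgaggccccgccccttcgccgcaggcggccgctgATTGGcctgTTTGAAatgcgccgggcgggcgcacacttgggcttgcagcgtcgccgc
Cdc20 (chr4:118437294-118437593, minus strand): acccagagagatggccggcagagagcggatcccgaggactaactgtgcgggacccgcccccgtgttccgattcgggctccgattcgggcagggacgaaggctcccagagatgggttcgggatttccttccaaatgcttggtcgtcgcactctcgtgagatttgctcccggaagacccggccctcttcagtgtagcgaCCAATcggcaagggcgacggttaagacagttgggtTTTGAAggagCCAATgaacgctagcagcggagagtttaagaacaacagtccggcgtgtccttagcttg
Mki67 (chr7:135716330-135716629, minus strand): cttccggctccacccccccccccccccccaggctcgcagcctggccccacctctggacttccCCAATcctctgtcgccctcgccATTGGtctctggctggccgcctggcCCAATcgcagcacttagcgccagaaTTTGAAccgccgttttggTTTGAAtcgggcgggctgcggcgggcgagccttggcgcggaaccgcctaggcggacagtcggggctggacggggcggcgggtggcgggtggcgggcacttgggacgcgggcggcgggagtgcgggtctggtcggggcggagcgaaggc
Pcna (chr2:132253131-132253430, minus strand): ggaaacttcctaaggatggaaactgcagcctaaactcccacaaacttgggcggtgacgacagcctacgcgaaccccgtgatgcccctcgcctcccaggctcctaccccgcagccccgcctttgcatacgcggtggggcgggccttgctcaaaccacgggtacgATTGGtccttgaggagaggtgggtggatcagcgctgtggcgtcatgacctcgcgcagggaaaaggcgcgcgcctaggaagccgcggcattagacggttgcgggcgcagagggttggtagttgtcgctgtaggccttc
Mcm5 (chr8:75109259-75109558, plus strand): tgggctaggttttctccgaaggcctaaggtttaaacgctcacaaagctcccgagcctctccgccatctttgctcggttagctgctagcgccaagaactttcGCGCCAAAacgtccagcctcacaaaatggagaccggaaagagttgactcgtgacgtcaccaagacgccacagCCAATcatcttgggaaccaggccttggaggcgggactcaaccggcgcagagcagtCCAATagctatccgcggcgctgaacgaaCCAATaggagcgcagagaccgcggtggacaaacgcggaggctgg
Mcm6 (chr1:128359656-128359955, minus strand): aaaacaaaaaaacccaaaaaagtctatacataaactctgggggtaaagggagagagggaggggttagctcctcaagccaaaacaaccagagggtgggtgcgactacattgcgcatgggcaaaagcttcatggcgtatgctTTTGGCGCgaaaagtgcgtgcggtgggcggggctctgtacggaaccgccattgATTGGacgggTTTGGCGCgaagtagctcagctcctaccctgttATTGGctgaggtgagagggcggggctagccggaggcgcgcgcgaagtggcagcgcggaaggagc
The capitals in Kif23 are a reversed CCAAT box and a CHR at 2 bases past the start, and in Cdc20 a CHR lies at position -18 between CCAAT boxes. Mki67 holds 2 CHR matches and 3 CCAAT matches. Mcm5 and Mcm6 hold E2F matches, 1 and 2 respectively, with CCAAT boxes and no CHR, and Pcna holds a CCAAT box alone. Of the mitosis members with a window, 14 of 18 held a CHR and 17 of 18 a CCAAT box, and none held one of the E2F words. Of the replication members, 1 of 13 held a CHR (Mcm2), 9 of 13 a CCAAT box and 6 of 13 an E2F word. Over all 27025 genes with a window the shares were 20.2% for CHR, 41.1% for CCAAT and 2.39% for E2F. The CHR matches of the mitosis members lay from position -179 to 40, and 13 of 18 were within 50 bases of the start, where a match shared by overlapping windows of a gene counts once. A match describes the letters in these windows and not binding of a factor.

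**Figure D1:**
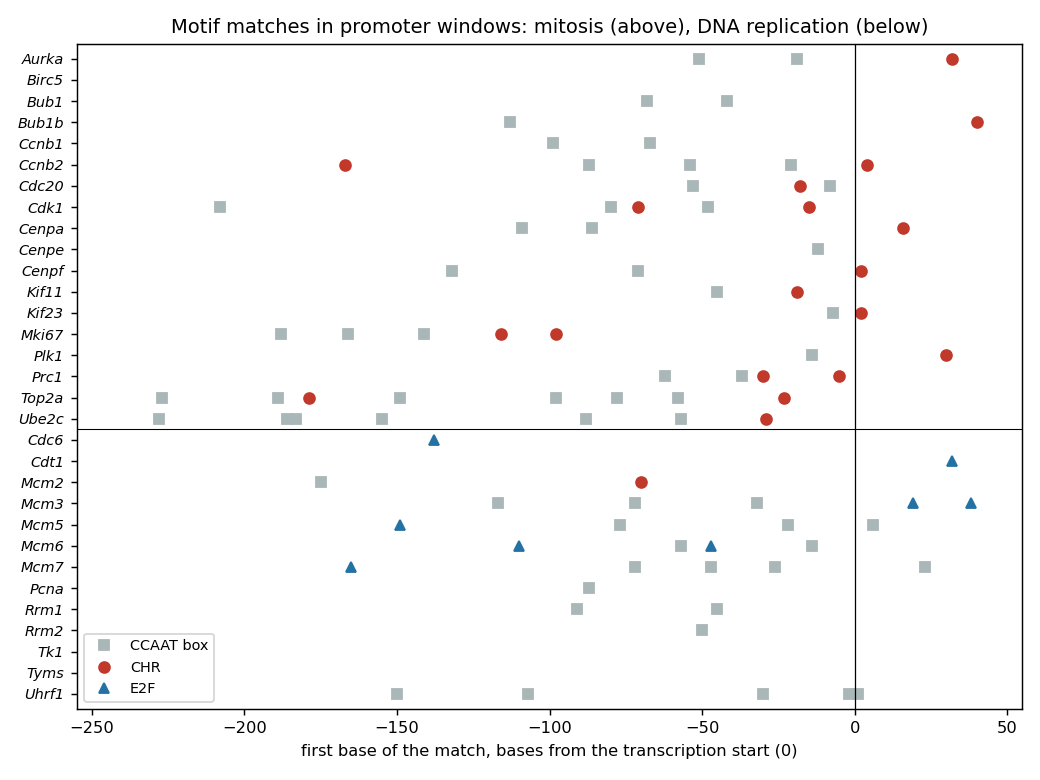
Matches of the CHR, CCAAT and E2F words in the promoter windows of 18 mitosis and 13 replication members. The x axis is the position of the first base of a match in bases from the transcription start, and each row is a gene. CHR matches (red circles) stand in 14 of 18 mitosis rows and in 1 replication row, and E2F matches (blue triangles) in 6 of 13 replication rows only.

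The members measured in these kidneys were mainly those of replication. The values are FPKM, fragments scaled to the length of the transcript and to the total of the library, and were summed per gene over the annotated transcripts listed for all 15 mice. In total 20 of 43 members had such a transcript: 13 of 15 replication members, 3 of 5 G1 members and 4 of 23 mitosis members. The mitosis genes Mki67, Top2a, Ccnb1, Ccnb2, Cdk1, Bub1, Bub1b, Aurkb, Plk1, Kif11, Kif20a, Cenpe, Cenpf, Tpx2 and Prc1 were listed for no group, nor were the replication genes Cdc6 and Uhrf1 or the E-type cyclins Ccne1 and Ccne2. Of the 14 mitosis members with a CHR, 3 were listed for every mouse, and of the 6 replication members with an E2F word, 5 were.

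Listing follows a rule that the values themselves show. A transcript is in the Control tables where its mean in Control or in Ang II is at least 0.5 FPKM, and in the tables of the Ang II and Ang II + QDG mice where its mean in either of these groups is. The 19 members that were listed nowhere therefore have no annotated transcript with a group mean of 0.5 FPKM or more; they are not analysed here and are not shown to be absent. A transcript low in Control is in all tables only where its Ang II mean was at least 0.5 FPKM, so summed levels favour Ang II over Control. This holds for 9 transcripts of 6 members, with a Control mean under 0.5 FPKM: both of Kif23, 3 of Tk1 and 1 each of Mcm5, E2f1, Tyms and Cenpa. The rule also leaves 2256 transcripts out of the sums that had an Ang II mean under 0.5 FPKM and an Ang II + QDG mean above it. Transcripts that were high in Ang II and low in Ang II + QDG stay in. Summed levels thus also favour Ang II over Ang II + QDG, which bears on all results of that comparison. Fragments of a member may also lie in assembled transcripts without a gene name, which held 9.6% to 11.9% of the FPKM of a mouse.

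The same rule splits 4 mitosis members between groups. Ccna2, the cyclin of S phase and G2, was listed for Control alone, at 0.374 to 0.80 FPKM, and Ube2c, the ubiquitin-conjugating enzyme of mitotic exit, also for Control alone, at 0.153 to 1.30 FPKM. The spindle kinase Aurka was listed for both other groups, at 0 to 0.638 FPKM in Ang II and 0.0383 to 0.936 FPKM in Ang II + QDG. The chromosomal passenger protein Birc5 was listed for the same groups, at 0 to 0.425 FPKM in Ang II and 0.0602 to 0.666 FPKM in Ang II + QDG. For these 4 genes the direction between the group that carried a transcript past 0.5 FPKM and the others is fixed by the listing, so no difference is read from them.

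**Figure D2:**
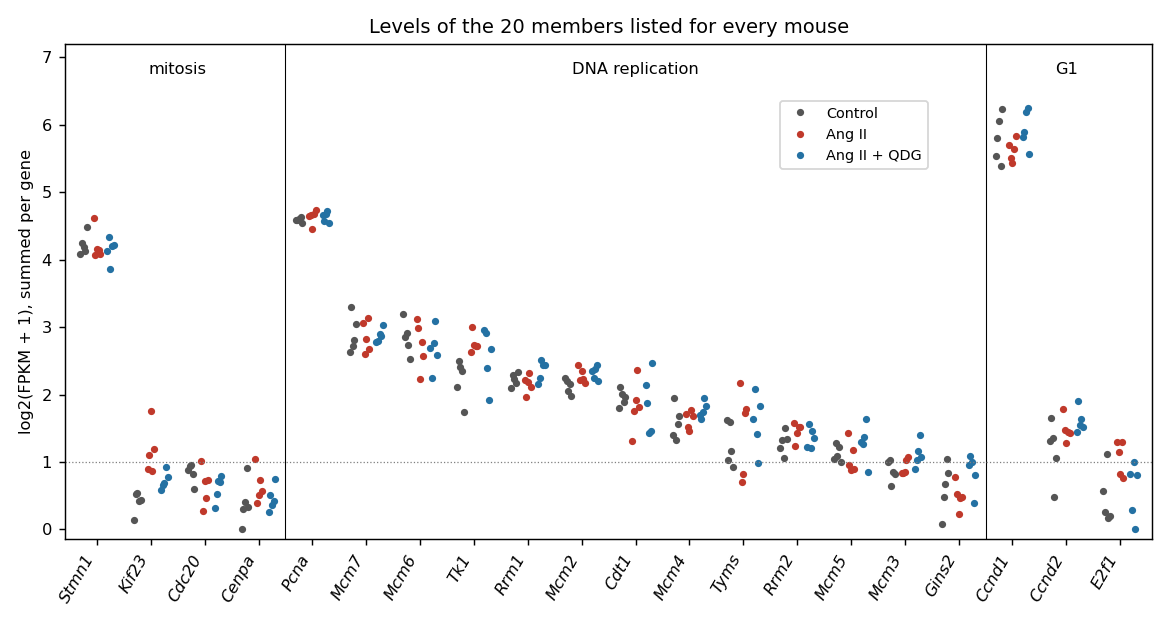
Levels of the 20 members listed for every mouse, as log2(FPKM + 1) with FPKM summed per gene. Each point is 1 mouse, with 5 points per group, and the dotted line marks 1 FPKM; in mitosis only Stmn1 stands above the line in every mouse, and Ccnd1 has the highest values of all.

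Per length, levels ran over a wide range. Ccnd1 averaged 55.4 FPKM over the 15 mice, Pcna 23.6 FPKM and Stmn1 17.5 FPKM. Mcm7 averaged 6.43 FPKM, Tk1 4.90 FPKM, Rrm1 3.77 FPKM and Mcm2 3.75 FPKM. The other mitosis members listed for every mouse, Kif23, Cdc20 and Cenpa, averaged under 1 FPKM over the 15 mice. For the tests, genes were kept that reached 1 FPKM in 5 or more mice, which left 12372 genes and 15 members: 12 of replication, Ccnd1, Ccnd2 and Stmn1. Kif23, Cdc20, Cenpa, Gins2 and E2f1 fell under this filter. Ang II was compared with Control, and Ang II + QDG with Ang II (QDG vs. Ang II below) and with Control (QDG vs. Control). limma was fitted to log2(FPKM + 1) over all 15 mice, two-sided, with Benjamini-Hochberg adjustment over all genes tested.

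None of the 15 tested members passed an adjusted p of 0.05 (limma) in any of the 3 comparisons. In Ang II vs. Control, 5.94% of all genes did (735 of 12372), and the smallest adjusted p of a member was 0.106, for Tk1. At an unadjusted p under 0.05, 1 of 15 members was past the threshold in Ang II vs. Control (22.7% of all genes), 0 of 15 in QDG vs. Ang II (16.4%) and 3 of 15 in QDG vs. Control (14.4%), of which Mcm3 met the filter only through its Ang II + QDG values. At an adjusted p of 0.05 the shares of all genes in these latter comparisons were 1.81% and 0.129%. The comparisons share groups, so they are not independent of each other.

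The members' median log2 fold change was 0.04 in Ang II vs. Control, 0.04 in QDG vs. Ang II and 0.14 in QDG vs. Control. Over all genes tested it was 0.08, -0.02 and 0.06. In Ang II vs. Control, 8 members were above 0 and 7 below, and after quantile normalization or median scaling 5 were above and 10 below. Among all genes, 83.3% of the 735 calls were higher in Ang II, against 45.9% of 495 after quantile normalization, so the direction of a small change rests on the scaling.

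**Figure D3:**
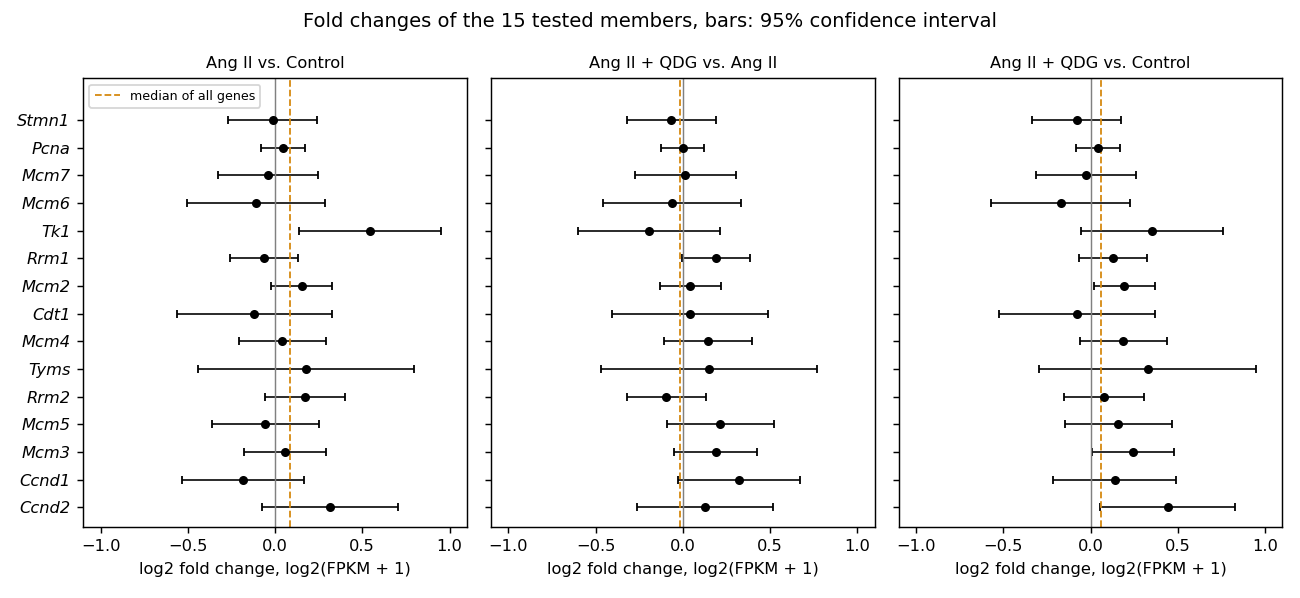
Log2 fold changes of the 15 tested members on the log2(FPKM + 1) scale, with 95% confidence intervals, 1 panel per comparison and 5 mice per group. The dashed line is the median of all 12372 genes; Tk1 in Ang II vs. Control (0.55) and Ccnd2 in QDG vs. Control (0.44) lie farthest from 0 in their panels.

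Kif23, the kinesin of the central spindle that is needed for cytokinesis, was the one of the 4 listed mitosis members whose Ang II values all lay above Control (chr9:61915905-61946774, minus strand, GRCm38). It was chosen for full values because it had the second highest mean of its role over all mice, a rank it owes to Ang II, since in Control Cdc20 was higher. Its summed level was 0.104, 0.438, 0.447, 0.338 and 0.346 FPKM in the Control mice. The Ang II mice had 0.861, 1.15, 2.36, 0.824 and 1.29 FPKM. The Ang II + QDG mice had 0.494, 0.581, 0.619, 0.901 and 0.716 FPKM. Every mouse of both infused groups was thus above every Control mouse, and the Ang II + QDG mice overlapped with the lower end of Ang II.

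The Kif23 means were 0.335 ± 0.139 FPKM in Control, 1.30 ± 0.626 FPKM in Ang II and 0.662 ± 0.155 FPKM in Ang II + QDG (SD, n = 5 each), a ratio of means of 3.88 for Ang II to Control. These levels rest on 22 to 114 fragments per Control mouse, 168 to 514 per Ang II mouse and 111 to 183 per Ang II + QDG mouse. Kif23 was under the filter and so outside the main test. Without the filter, over 13940 genes, its log2 fold change in Ang II vs. Control was 0.75 (SE 0.15). This is a description without a test, since both of its transcripts are in the Control tables only through their Ang II means. In QDG vs. Ang II the log2 fold change of Kif23 was -0.43 (SE 0.15), and in QDG vs. Control 0.32 (SE 0.15), likewise without a test.

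With each mouse left out in turn, the log2 fold change of Kif23 was 0.61 to 0.83 in fits chosen after the data were seen, which kept the listing made with all mice. Both listed transcripts are coding. The longer, ENSMUST00000034815, averaged 0.229 FPKM in Control, against 0.780 FPKM in Ang II, and ENSMUST00000214295 averaged 0.106 and 0.518 FPKM. Without the Ang II mouse of 2.36 FPKM the Ang II mean of ENSMUST00000214295 is 0.404 FPKM, under the limit of listing, so its place in the Control tables rests on that mouse. Kif23 could therefore be compared with Control only because it was high in Ang II, and a mitosis gene with a like change below that level would not be seen.

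**Figure D4:**
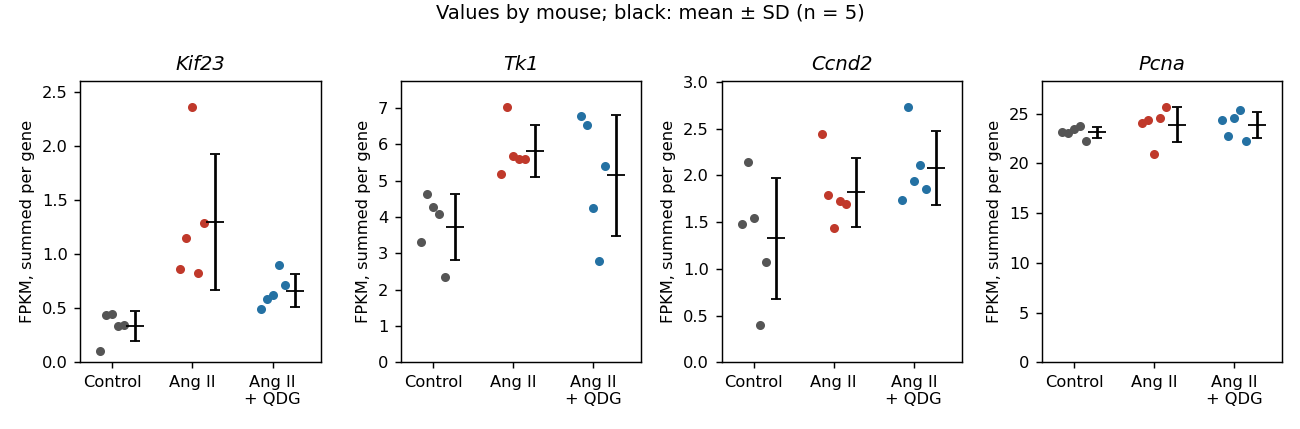
Summed FPKM of Kif23, Tk1, Ccnd2 and Pcna in each mouse (points) with the group mean and SD (black, n = 5), axes from 0. Kif23 and Tk1 show no overlap between Control and Ang II, Ccnd2 overlaps, and Pcna lies within 20.9 to 25.7 FPKM in all 15 mice.

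The remaining mitosis members with values showed no such separation. Stmn1 encodes stathmin, a microtubule-destabilizing protein that is also abundant outside dividing cells (chr4:134468320-134473843, plus strand). It had 16.1, 18.0, 17.2, 16.4 and 21.4 FPKM in the Control mice, 23.7, 15.8, 16.8, 16.6 and 15.9 FPKM in Ang II and 16.5, 19.2, 13.5, 17.3 and 17.7 FPKM in Ang II + QDG. The 3 groups overlapped throughout, with 1 high mouse in Ang II. Its log2 fold change in Ang II vs. Control was -0.01 (95% confidence interval -0.27 to 0.24). Cdc20, which activates the anaphase-promoting complex, had 0.515 to 0.937 FPKM in Control, 0.211 to 1.01 FPKM in Ang II and 0.248 to 0.733 FPKM in Ang II + QDG. Cenpa, the centromeric histone, was listed only by a transcript annotated for nonsense-mediated decay, at 0 to 0.871 FPKM in Control, against 0.306 to 1.05 FPKM in Ang II. Cdc20 had an unadjusted p of 0.166 in Ang II vs. Control without the filter (limma), and no test is given for Cenpa, which is in the Control tables only through its Ang II mean.

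Pcna, the sliding clamp that tethers DNA polymerase, was the most abundant replication member and was at much the same level in every mouse (chr2:132249162-132253314, minus strand). Control mice had 23.1, 23.1, 23.4, 23.7 and 22.2 FPKM, Ang II mice 24.1, 24.3, 20.9, 24.5 and 25.7 FPKM, and Ang II + QDG mice 24.4, 22.8, 24.6, 25.4 and 22.3 FPKM. All 3 groups overlapped. The log2 fold change of Pcna was 0.04 in Ang II vs. Control (95% confidence interval -0.08 to 0.17). The upper end of this interval is a ratio of 1.12 on the log2(FPKM + 1) scale. In QDG vs. Ang II the log2 fold change was 0.00 with an interval of -0.13 to 0.12.

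The nucleotide supply genes gave the largest difference of the replication set. Tk1, thymidine kinase of the salvage pathway (chr11:117815526-117826092, minus strand), had 3.31, 4.63, 4.29, 4.07 and 2.36 FPKM in Control. Ang II mice had 5.19, 7.04, 5.69, 5.60 and 5.59 FPKM, and Ang II + QDG mice 6.80, 6.53, 4.24, 2.78 and 5.40 FPKM. Every Ang II mouse lay above every Control mouse, and the Ang II + QDG mice spread over both ranges. The log2 fold change of Tk1 was 0.55 in Ang II vs. Control (SE 0.19, unadjusted p = 0.0124, adjusted p = 0.106, limma), -0.19 in QDG vs. Ang II (adjusted p = 0.665) and 0.35 in QDG vs. Control (adjusted p = 0.413). Without overlap between Control and Ang II there were 2 of the 20 listed members, Kif23 and Tk1, and 7.75% of all 13940 genes; listing through the Ang II mean touches both. For QDG vs. Ang II these counts were 0 of 20 and 4.66%, and for QDG vs. Control 1 of 20 (Kif23) and 3.44%.

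Most of the Tk1 signal was in transcripts that retain an intron. Its 1 coding transcript had 1.03 ± 0.579 FPKM in Control, 1.48 ± 0.287 FPKM in Ang II and 1.57 ± 0.733 FPKM in Ang II + QDG (SD, n = 5 each). The 5 retained-intron transcripts summed to 2.70 ± 0.692, 4.34 ± 0.853 and 3.58 ± 1.78 FPKM. With coding transcripts alone, the log2 fold change of Tk1 in Ang II vs. Control was 0.33 (SE 0.21, adjusted p = 0.414, limma). Of these 5, 3 have a Control mean under 0.5 FPKM and enter the Control sum through their Ang II means alone. Of 5332 retained-intron transcripts listed for all mice, 9.45% were above Control in every Ang II mouse and 0.244% below, against 3.55% and 1.13% of 18628 coding transcripts. The listing keeps transcripts that are low in Control and high in Ang II and drops those low in both infused groups, so these shares favour the higher side, and no change of retained introns is read from them.

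The other genes of nucleotide supply overlapped between groups. Rrm2, the regulated subunit of ribonucleotide reductase (chr12:24708241-24714146, plus strand), had 1.30, 1.5, 1.09, 1.83 and 1.54 FPKM in the Control mice, 2.0, 1.36, 1.71, 1.86 and 1.86 FPKM in Ang II and 1.33, 1.95, 1.32, 1.75 and 1.57 FPKM in Ang II + QDG. Its log2 fold change in Ang II vs. Control was 0.17 (95% confidence interval -0.06 to 0.40). Rrm1, the catalytic subunit (chr7:102441695-102469771, plus strand), had 3.3, 3.87, 3.67, 3.52 and 4.05 FPKM in the Control mice, 3.67, 2.91, 3.57, 3.98 and 3.34 FPKM in Ang II and 3.44, 3.73, 4.70, 4.42 and 4.43 FPKM in Ang II + QDG. In Ang II + QDG 3 mice exceeded all mice of the other groups, and the log2 fold change vs. Ang II was 0.19 (SE 0.09, unadjusted p = 0.0523, adjusted p = 0.311, limma). Tyms, thymidylate synthase (chr5:30058202-30073617, minus strand), varied most from mouse to mouse. It had 2.08, 1.04, 2.0, 1.23 and 0.905 FPKM in the Control mice, 3.51, 0.620, 0.759, 2.30 and 2.46 FPKM in Ang II and 2.13, 3.23, 1.68, 0.974 and 2.56 FPKM in Ang II + QDG. Its 95% confidence interval in Ang II vs. Control ran from -0.45 to 0.80, so a ratio of up to 1.73 on the log2(FPKM + 1) scale lies within it.

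The Mcm2 to Mcm7 genes encode the replicative helicase, and Cdt1 loads it onto origins. Mcm2 (chr6:88883474-88898780, minus strand) had 3.73, 3.59, 3.17, 3.45 and 2.95 FPKM in the Control mice, 4.43, 3.62, 4.11, 3.67 and 3.50 FPKM in Ang II and 4.08, 3.76, 4.17, 4.44 and 3.58 FPKM in Ang II + QDG. The infused groups covered one range, and Control lay partly beneath it. The log2 fold change of Mcm2 in QDG vs. Control was 0.19 (SE 0.08, unadjusted p = 0.0312, adjusted p = 0.297, limma). Mcm3 (chr1:20802968-20820312, minus strand) had 0.994, 1.05, 0.563, 0.799 and 0.768 FPKM in the Control mice, 0.778, 0.778, 0.805, 1.05 and 1.11 FPKM in Ang II and 0.867, 1.05, 1.23, 1.64 and 1.1 FPKM in Ang II + QDG. In QDG vs. Control its log2 fold change was 0.24 (SE 0.11), given without a test: Mcm3 reached 1 FPKM in 4 Ang II + QDG mice and in only 3 others, so it met the filter through the group where it was highest. Mcm7 (chr5:138164583-138172422, minus strand), the most abundant of the 6, had 5.21, 8.85, 5.61, 5.97 and 7.27 FPKM in the Control mice, 7.34, 5.07, 6.06, 7.81 and 5.42 FPKM in Ang II and 5.83, 5.94, 6.48, 6.34 and 7.18 FPKM in Ang II + QDG. Its groups overlapped, and its log2 fold change in Ang II vs. Control was -0.04 (95% confidence interval -0.33 to 0.25).

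The rest of the licensing genes overlapped between all groups. Mcm4 ranged from 1.51 to 2.88 FPKM, Mcm6 from 3.68 to 8.13 FPKM and Cdt1 from 1.48 to 4.51 FPKM over the 15 mice. Gins2, a subunit of the GINS complex that joins the helicase to the polymerase, ranged from 0.0614 to 1.13 FPKM. The sum over the 13 listed replication members was 57.2 ± 2.95 FPKM in Control, 60.2 ± 5.03 FPKM in Ang II and 61.4 ± 1.03 FPKM in Ang II + QDG (SD, n = 5 each). The ranges of this sum were 53.7 to 61.9, 52.9 to 64.9 and 60.01 to 62.4 FPKM, so all 3 overlapped.

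Mcm5 (chr8:75109569-75128439, plus strand) is represented by 2 coding transcripts, of which the second is in the Control tables through its Ang II mean. ENSMUST00000212811 had 1.05, 1.43, 0.859, 0.742 and 0.99 FPKM in the Control mice, 0.580, 0.414, 0, 0.165 and 0.152 FPKM in Ang II and 1.46, 0.738, 0.930, 1.57 and 0 FPKM in Ang II + QDG. No Ang II mouse reached the lowest Control mouse, and 4 of the 5 Ang II + QDG mice were above every Ang II mouse. With an Ang II mean of 0.262 FPKM, this transcript is in all tables only because its Control and Ang II + QDG means were at least 0.5 FPKM. The listing thus fixes both directions, and no difference is read from them. ENSMUST00000164309 had 0, 0, 0.268, 0.593 and 0.00384 FPKM in the Control mice, 1.1, 0.533, 0.849, 1.09 and 0.715 FPKM in Ang II and 0, 0.668, 0.661, 0.523 and 0.802 FPKM in Ang II + QDG. Summed, Mcm5 averaged 1.19 ± 0.186 FPKM in Control, 1.12 ± 0.354 FPKM in Ang II and 1.47 ± 0.463 FPKM in Ang II + QDG (SD, n = 5 each).

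Taken singly, the Mcm5 transcripts had log2 fold changes of -0.68 and 0.68 in Ang II vs. Control. No test is given for either transcript. The listing fixes the direction of the first, and the second is listed for Control through its Ang II mean. In Ang II vs. Control, 0.394% of all 40054 single transcripts passed an adjusted p of 0.05 (limma without a filter). In that comparison 5.22% of all single transcripts did not overlap between the groups. The 2 transcripts overlap in sequence, so their split, unlike their sum, depends on how fragments were assigned, which is not given in the sources used here.

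Ccnd1, the D cyclin that couples growth factor signals to the cell cycle, was the most abundant member (chr7:144929931-144939925, minus strand). It had 45.4, 54.8, 65.5, 41.1 and 74.5 FPKM in the Control mice, 51.0, 44.4, 42.1, 49.1 and 56.0 FPKM in Ang II and 55.7, 58.4, 71.8, 74.9 and 46.4 FPKM in Ang II + QDG. The Ang II mice lay in the lower part of the Control range. Its log2 fold change was -0.18 in Ang II vs. Control (SE 0.16, adjusted p = 0.553, limma) and 0.32 in QDG vs. Ang II (SE 0.16, unadjusted p = 0.0701, adjusted p = 0.355).

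Ccnd2, a second D cyclin, was far lower (chr6:127125162-127152193, minus strand). It had 1.48, 2.14, 1.55, 0.398 and 1.07 FPKM in the Control mice, 2.44, 1.79, 1.44, 1.73 and 1.69 FPKM in Ang II and 1.73, 2.74, 1.94, 2.12 and 1.85 FPKM in Ang II + QDG. A low Control mouse and a high Control mouse set the spread, and all groups overlapped. In QDG vs. Control its log2 fold change was 0.44 (SE 0.18, unadjusted p = 0.0282, adjusted p = 0.289, limma), and in Ang II vs. Control 0.32 (SE 0.18, adjusted p = 0.327). With 1 mouse left out these ran from 0.27 to 0.56 and from 0.14 to 0.44. Without Control replicate 4 Ccnd2 was no longer past an unadjusted p of 0.05 (limma) in QDG vs. Control.

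E2f1, the transcription factor that drives many replication genes, could not be compared as a whole gene (chr2:154559407-154569892, minus strand). Its transcript ENSMUST00000103145 had 0.480, 0.198, 1.18, 0.126 and 0.147 FPKM in the Control mice, 1.45, 1.20, 0.759, 1.44 and 0.699 FPKM in Ang II and 0.773, 0.226, 0.993, 0 and 0.758 FPKM in Ang II + QDG. Its log2 fold change in Ang II vs. Control was 0.60 without the filter (SE 0.22), again without a test, since it is in the Control tables through its Ang II mean. A second coding transcript, ENSMUST00000000894, was listed for Control alone, at 0.773, 0.947, 0.0193, 1.12 and 1.23 FPKM. With both, the Control mice had 1.15 to 1.38 FPKM of E2f1, within the 0.699 to 1.45 FPKM of the Ang II mice, so the higher value of 1 transcript in Ang II is not shown to be a higher value of the gene.

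**Figure D5:**
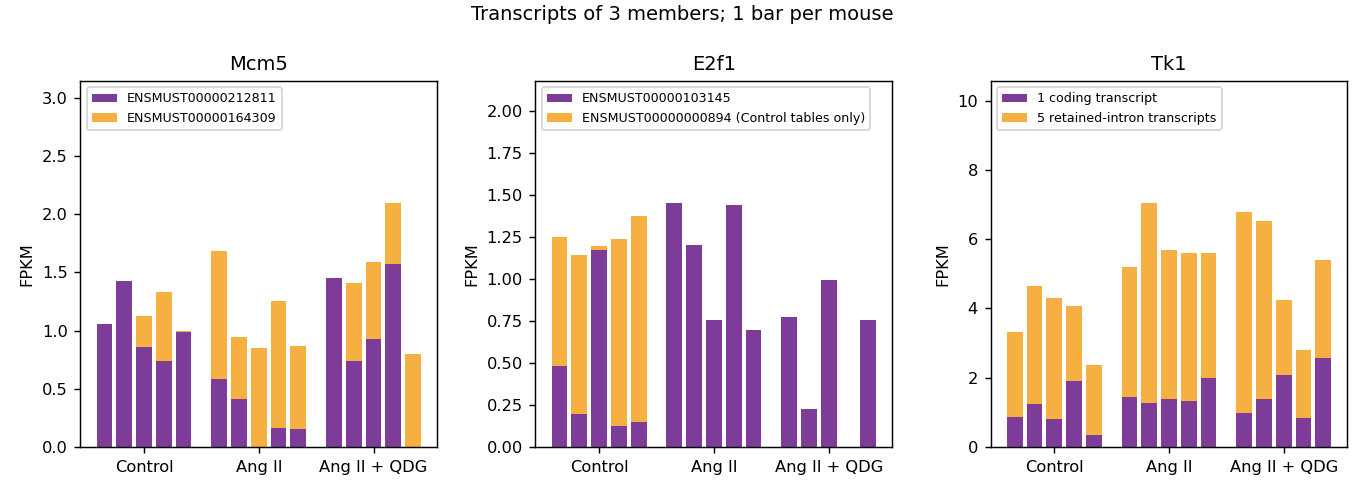
FPKM of the listed transcripts of Mcm5, E2f1 and Tk1, stacked with 1 bar per mouse and 5 mice per group from 0. Mcm5 has one transcript in most Control mice and mainly the other in Ang II mice at a like sum; E2f1 has its second transcript in the Control tables only, and its total there is 1.15 to 1.38 FPKM; most of Tk1 is in its 5 retained-intron transcripts.

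The wider pathway was read through 155 further genes in 4 lists, of which 89 were tested. In Ang II vs. Control 1 of these 89 passed an adjusted p of 0.05 (limma; 5.94% of all genes), and 8 were higher and 4 lower at an unadjusted p under 0.05 (22.7% of all genes). The 8 include Mcm10 and Skp2, which met the filter only through their Ang II values. In QDG vs. Ang II none of the 89 passed, with 8 higher and 6 lower at an unadjusted p under 0.05 (16.4%), and in QDG vs. Control none passed, with 9 higher and 3 lower (14.4%). Skp2 is among the 6 lower in QDG vs. Ang II. By list, 20 of 60 further mitosis genes could be tested, against 36 of 52 replication genes, 18 of 24 genes of G1 cyclins, their kinases and E2F, and 15 of 19 inhibitors and checkpoint genes.

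The gene that passed was Fzr1, which encodes the activator that directs the anaphase-promoting complex in G1 and quiescence. Its summed level differed in Ang II vs. Control by a log2 fold change of 0.30 (SE 0.07, adjusted p = 0.0205, limma), from 6.88 ± 0.428 to 8.72 ± 0.732 FPKM, with 7.82 ± 0.338 FPKM in Ang II + QDG (SD, n = 5). The difference was in its 2 retained-intron transcripts, both in the Control tables only through their Ang II means, which summed to 0.761 ± 0.618 FPKM in Control, against 3.82 ± 0.514 FPKM in Ang II. The listing fixes the direction of both, so the call on the summed level is no test of a difference. Its 1 coding transcript averaged 6.12 ± 0.607 FPKM in Control, against 4.90 ± 0.786 FPKM in Ang II, and with coding transcripts alone the log2 fold change was -0.28 (SE 0.14, adjusted p = 0.298, limma). The call was also lost, with folds of 0.21 to 0.30, after quantile normalization (adjusted p = 0.0588), after median scaling (0.0605) and with only the 2 groups in the fit (0.0578).

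In the other lists no gene passed, and those of smallest unadjusted p in Ang II vs. Control are given. Pole4, a small subunit of the leading-strand polymerase, averaged 13.3 ± 1.87 FPKM in Control, 16.6 ± 1.55 FPKM in Ang II and 12.7 ± 0.838 FPKM with QDG (SD, n = 5 each). The log2 fold change was 0.30 in Ang II vs. Control (adjusted p = 0.0704, limma) and -0.36 in QDG vs. Ang II (adjusted p = 0.0685), and every Ang II + QDG mouse was below every Ang II mouse. Pole4 passed in Ang II vs. Control with all listed transcripts (adjusted p = 0.0460, limma) or without Control replicate 4 (0.0407). In QDG vs. Ang II it passed without Control replicate 5 (0.0352). With all listed transcripts, a transcript missing from a table was taken as 0, so nothing is read from that pass. Mcm10, a replication fork factor, averaged 0.593, 1.36 and 0.824 FPKM. Tfdp1, the partner of E2F, averaged 10.9, 13.0 and 11.4 FPKM (adjusted p = 0.172), and Skp2, the F-box protein that marks the inhibitor p27 for degradation, 0.614, 1.06 and 0.469 FPKM. No test is given for Mcm10 and Skp2, which met the filter only through their Ang II values. Among inhibitors and checkpoint genes, Btg2, an antiproliferative gene, averaged 5.08, 6.23 and 6.02 FPKM (adjusted p = 0.253), and Chek2, a checkpoint kinase, 1.15, 2.15 and 2.04 FPKM (adjusted p = 0.286). Cdkn1a, which encodes the inhibitor p21 and was named after its values were seen, averaged 5.74, 12.2 and 2.75 FPKM. Its Ang II mean includes 1 mouse at 35.3 FPKM, and its log2 fold change in QDG vs. Ang II was -1.46 (adjusted p = 0.0836, limma).

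Depth and cell content differed somewhat between the groups. The implied totals were 75034634 to 81329478 fragments per Control mouse, 70697603 to 79291938 per Ang II mouse and 68922860 to 76143528 per Ang II + QDG mouse. All 10 kidney markers were listed, Lrp2, Umod and Aqp2 among them, with a summed level of 3638 to 4247 FPKM in Control, 4057 to 4708 FPKM in Ang II and 4276 to 4547 FPKM in Ang II + QDG. Markers of blood and its precursors, 5 of 6 listed, summed to 545 to 1362 FPKM in Control, 1115 to 1943 FPKM in Ang II and 1557 to 2818 FPKM in Ang II + QDG. Their medians were 891, 1526 and 1649 FPKM. At an unadjusted p under 0.05 (limma), 3 of the 5 were higher in Ang II vs. Control (22.7% of all genes) and 5 of 5 in QDG vs. Control (14.4%), where Hba-a1 alone passed the adjusted threshold (log2 fold change 1.17, adjusted p = 0.0257). Kif23 and Tk1 were highest in Ang II and not in Ang II + QDG; the part of these markers in the Kif23 and Tk1 values was not tested.

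Markers of other cell types that divide or carry these genes were summed in the same way. Leukocyte markers, 7 of 15 listed, lay between 35.3 and 54.0 FPKM in the sum for Control and between 28.2 and 45.4 FPKM for Ang II, and none of the 6 tested passed an adjusted p of 0.05 (limma), nor an unadjusted p of 0.05, in Ang II vs. Control; the T and B cell markers Cd3e, Cd8a and Ms4a1 were not listed. In Ang II + QDG the sum ran from 32.9 to 122 FPKM, with Ang II + QDG replicate 4 at 122 FPKM and the next mouse at 56.4 FPKM. That mouse also had the highest level of its group for Kif23, Pcna, Ccnd1 and the genes from Mcm2 to Mcm6, and the lowest for Tk1, Tyms, Gins2, E2f1, Aurka and Birc5. Without it, 0 of 15 members passed an unadjusted p of 0.05 (limma) in QDG vs. Ang II, as with it, against 1797 of 12288 genes. In QDG vs. Control 2 of 15 passed (Ccnd2 and Tk1), against 1710 of 12288 genes, and Mcm2 and Mcm3 no longer did. Fibroblast and mural markers, 7 of 8 listed, summed to 28.6 to 53.9 FPKM in Control, 35.6 to 99.9 FPKM in Ang II and 51.2 to 72.8 FPKM in Ang II + QDG, and Pdgfrb rose in Ang II vs. Control (log2 fold change 1.13, adjusted p = 0.0468, limma). At an unadjusted p under 0.05 (limma), 3 of the 7 were higher in Ang II vs. Control (22.7% of all genes) and 3 of 7 in QDG vs. Control (14.4%). The part of these markers in the members' values was not tested. Tubular injury markers, 7 of 10 listed with Havcr1, Krt20 and Sox9 not, summed to 268 to 541 FPKM in Control, against 294 to 430 FPKM in Ang II. No injury, endothelial or adrenal marker passed an adjusted p of 0.05 in any comparison (limma). Endothelial markers, 5 of 5 listed, summed to 48.3 to 78.0 and 49.6 to 74.1 FPKM, and of 5 adrenal markers 1 was listed, at 0.692 to 1.16 FPKM in Control, against 0.848 to 0.929 FPKM in Ang II.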

How the data were processed

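Kidney RNA of 15 mice, 5 per group as the labels give them, was depleted of ribosomal RNA and sequenced in pairs by the authors. For each mouse the authors deposited a value per transcript on mm10, with limma in the submitters' processing notes; aligner, annotation and unit are not given in the sources used here. The deposited values were taken as FPKM, since, times transcript length, they came to whole numbers of fragments (within 0.05) on a scale fixed per mouse in 98.4% to 98.7% of cases under 200 fragments. Replicates come from separate mice. Transcripts were matched to GENCODE mouse release 21 (31254 of 31301 Ensembl identifiers) and FPKM summed per gene over transcripts in all 15 files; reads of near-identical or overlapping transcripts remain uncertain.

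limma 3.58.1 (R 4.3.3) was fitted with a trend to log2(FPKM + 1), 1 mean per group, for genes reaching 1 FPKM in 5 or more mice, with Benjamini-Hochberg adjustment over 12372 genes; confidence intervals are 95%. The pseudocount makes fold changes of low genes smaller. The script was tested on simulated data. Each sample's file held that sample alone. The members and lists were chosen with earlier results of these data known. Values by mouse are given for members past an unadjusted p of 0.05, the 2 of highest mean in each role, and those of next smallest p in Ang II vs. Control, up to 12. Mcm5, E2f1, Cdc20, Cenpa and other members named with values were chosen after their values were seen. Alternatives were the filter, pseudocount, scaling, transcript set, groups in the fit and each mouse left out. Promoter windows are RefSeq's. Single results of some marker genes are not reported here.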

Additional observations from a re-analysis of the deposited data

Results flagged for a closer look

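In 60 sets of 5 mice (20 members in 3 groups), the gap between the highest or lowest mouse and its nearest neighbour was compared with the range of the set, against Dixon's critical value of 0.71. It was exceeded in 2 sets; chance flags about 1 in 20. In Ang II replicate 1, Stmn1 was at 23.7 FPKM, while the other 4 Ang II mice lay between 15.8 and 16.8 FPKM. In Ang II replicate 2, Tk1 was at 7.04 FPKM, while the other 4 lay between 5.19 and 5.69 FPKM, all still above the highest Control mouse.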

How the results depend on the processing

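No member passed an adjusted p of 0.05 (limma) in any comparison under the other pseudocount, either scaling, all listed transcripts, coding transcripts alone, only the groups compared, or with any 1 mouse left out. Without the filter Kif23 alone passed in Ang II vs. Control (1 of 20), also with a pseudocount of 0.1 (1); its listing for Control depends on its Ang II mean, so this is no test of a difference. No filter with all listed transcripts gave 3 calls vs. Control for Ang II (Kif23, Ccna2 and Ube2c) and 3 for Ang II + QDG (Birc5, Ccna2 and Ube2c); for Ccna2, Ube2c and Birc5 a transcript missing from a table was taken as 0. The listing fixes the direction of all these, so nothing is read from these calls, nor from the counts of this setting below. Fits without the filter under a further change were chosen after the data were seen.

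Counts of members at an unadjusted p under 0.05 (limma) were 1 of 15 in Ang II vs. Control and became 3 of 20 without the filter (Tk1, with Kif23 and E2f1, whose listing for Control depends on Ang II). They were 3 of 20 with a pseudocount of 0.1 as well, 6 of 24 with all listed transcripts as well and 0 of 15 with coding transcripts. Over all genes, 2814 of 12372 were past the threshold in the main fit and 3126 of 13940 without the filter. In the other settings, in this order, 3089 of 13940, 3599 of 14435 and 2135 of 10812 genes were. In QDG vs. Ang II the count was 0, and it was 1 with all listed transcripts, either scaling, the 2 groups alone or no filter with a pseudocount of 0.1, and 2 without the filter or without it and with all listed transcripts. The main fit had 2032 of 12372 genes, all listed transcripts 2062 of 12455 and the 2 groups alone 1902 of 11987. Quantile normalization gave 2013 and median scaling 2024 of 12372 genes. Without the filter there were 2190 of 13940 genes, 2135 of 13940 with a pseudocount of 0.1 and 2301 of 14435 with all listed transcripts. In QDG vs. Control the count of members was 3, and 0 after quantile normalization, 1 after median scaling or with the 2 groups alone, and 9 with no filter and all listed transcripts. The main fit had 1778 of 12372 genes, quantile normalization 1621 and median scaling 1745 of 12372. The 2 groups alone gave 1735 of 11859 genes, and no filter with all listed transcripts 2589 of 14435. Leaving out 1 mouse gave 1 to 2, 0 to 2 and 0 to 4 members in these comparisons. Without Control replicate 5 the last count was 0, with 1685 of 12333 genes. For all genes, leaving out 1 mouse gave 2419 to 2913, 1790 to 2110 and 1383 to 2111, of 12281 to 12333 tested.

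With coding transcripts alone Fzr1 was at -0.28 in Ang II vs. Control, 0.062 in QDG vs. Ang II and -0.21 in QDG vs. Control, Tk1 at 0.0097 in QDG vs. Ang II and Mcm7 at 0.040 in QDG vs. Control. In Ang II vs. Control, Mcm3 was at -0.038 and -0.035 and Pcna at -0.047 and -0.047 after quantile normalization and median scaling. Pcna in QDG vs. Ang II was at 0.047 and 0.012 after these scalings and at 0.0051 with all listed transcripts, with and without the filter. In QDG vs. Control, median scaling gave -0.035 for Pcna, -0.0014 for Rrm2 and -0.0022 for Tfdp1, quantile normalization -0.020 for Rrm2, and all listed transcripts 0.00023 for Pole4, with and without the filter. With 1 mouse left out, the log2 fold change in Ang II vs. Control ran from -0.00063 to 0.097 for Mcm3, -0.11 to 0.058 for Mcm7, -0.12 to 0.051 for Stmn1 and -0.0081 to 0.36 for Tyms. In QDG vs. Ang II it ran from -0.050 to 0.084 for Mcm7, -0.046 to 0.025 for Pcna, -0.11 to 0.038 for Stmn1, -0.034 to 0.34 for Tyms, -0.079 to 0.084 for Btg2 and -0.28 to 0.16 for Chek2. In QDG vs. Control it ran from -0.094 to 0.073 for Mcm7, -0.13 to 0.0024 for Pole4 and -0.013 to 0.13 for Tfdp1. The cause of these changes was not tested.

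The Fzr1 call was lost without Control replicate 1 (adjusted p = 0.0526, limma) or Ang II replicate 5 (0.0522), with log2 fold changes of 0.28 and 0.27 against 0.30 with all mice. Over all genes, 735 calls in Ang II vs. Control became 338 to 797 with 1 mouse left out, 495 after quantile normalization, 470 after median scaling, 408 with coding transcripts and 460 with the 2 groups alone. In QDG vs. Ang II, 224 became 53 to 250 and 68, and in QDG vs. Control, 16 became 0 to 110 and 4, with 1 mouse left out and with the 2 groups alone; all listed transcripts gave 80 in the latter. Quantile normalization moved the share of higher calls from 29.0% to 97 of 194 calls in QDG vs. Ang II and from 75.0% to 53.3% in QDG vs. Control. No paired analysis was possible because the labels give the mice no replicate numbers; the numbers used here only follow the order of the samples. Depth limits what can be said of members under 1 FPKM, and of the 19 members not listed nothing can be said beyond the limit of 0.5 FPKM.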
